A study of Mus musculus with 6 samples.

Results

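The genes of pyruvate dehydrogenase and the tricarboxylic acid cycle were followed in mouse prefrontal cortex. The set holds 31 genes for pyruvate entry, the cycle enzymes and anaplerosis, taken by gene symbol out of 21878 genes in the table. All 31 passed the filter on low counts, as did 14440 genes in all. Whole prefrontal cortex, with no sorting of cells, was sequenced from 6 mice. The 3 control mice carried CamKIIα-Cre and only intact Gls1 alleles (CamKIIαCre;Gls1+/+, given as WT in the sample labels). The 3 Gls1_CamkIIaCre mice were their littermates with the same Cre and a single floxed allele (CamKIIαCre;Gls1+/flox). Gls1 encodes glutaminase, which makes glutamate from glutamine. The driver is active in forebrain excitatory neurons, so the allele is lost in a mosaic of cells while the other allele stays intact, and mice with both alleles floxed were not viable. All 6 mice thus carried Cre, and age is not given in the sources used here.

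Pyruvate dehydrogenase turns pyruvate into acetyl-CoA in the mitochondrial matrix, and citrate synthase joins it to oxaloacetate. The cycle then oxidises citrate back to oxaloacetate through 2-oxoglutarate, succinate, fumarate and malate. Glutamate can enter at 2-oxoglutarate, so glutaminase lies upstream of the cycle. In brain, neurons oxidise much pyruvate and glutamate in this way, and pyruvate carboxylase, which makes new oxaloacetate, is known as an astrocyte enzyme. The comparison asks whether transcripts of these enzymes differ when a glutaminase allele is lost in part of the excitatory neurons.

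Total counts ran from 17987807 to 19330961 per library. Markers are counted here as higher or lower where edgeR called them at an adjusted p under 0.05. Excitatory neuron markers, which fit the labelled cortex, summed to 6064 to 6414 CPM in control and 6182 to 6911 CPM in Gls1_CamkIIaCre, with 1 of 7 higher. Astrocyte markers summed to 2005 to 2031 against 1888 to 1915 CPM with 3 of 8 lower, and oligodendrocyte markers to 3315 to 3928 against 3022 to 3462 CPM with 3 of 7 lower. Striatal neuron markers summed to 775 to 1298 CPM in control and 304 to 349 CPM in Gls1_CamkIIaCre, and 9 of 11 were lower by that test, while in all 11 the groups did not overlap. Of the other lists, 2 of 4 markers of oligodendrocyte precursors, 1 of 6 of microglia, 1 of 5 of endothelium, 5 of 5 of meningeal fibroblasts and 2 of 4 of red blood cells were lower. Control 2 held the highest striatal sum, so the leading results on the cycle genes are also given without it. None of these lists had a marker at 0, and the part of such markers in the values of the cycle genes was not tested.

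Levels between genes were compared per transcript length, as FPKM. Mdh1, the cytosolic malate dehydrogenase of the malate-aspartate shuttle, had the highest level, at 277 ± 4.15 FPKM in control (SD, n = 3). Its mitochondrial partner Mdh2 followed at 172 ± 1.94, and Sdha, the flavoprotein of succinate dehydrogenase, at 113 ± 2.26 FPKM. A middle group of 8 genes lay between 69.9 and 94.7 FPKM in control: Idh3b, Sdhb, Pdha1, Idh3a, Cs, Sdhc, Pdhb and Sdhd. Neighbours in that order often lay within their spread, as with Idh3a at 78.7 ± 1.47 and Cs at 77.7 ± 1.27 FPKM. The lowest levels were those of Aco1 (5.49 ± 0.155 FPKM), Pck2 (4.31 ± 0.572), Suclg2 (4.17 ± 0.190), Me2 (4.11 ± 0.240) and Me3 (3.52 ± 0.210). The level of Me3 depends on a long gene model, with an implied length of 20589 bases.

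**Figure D1:**
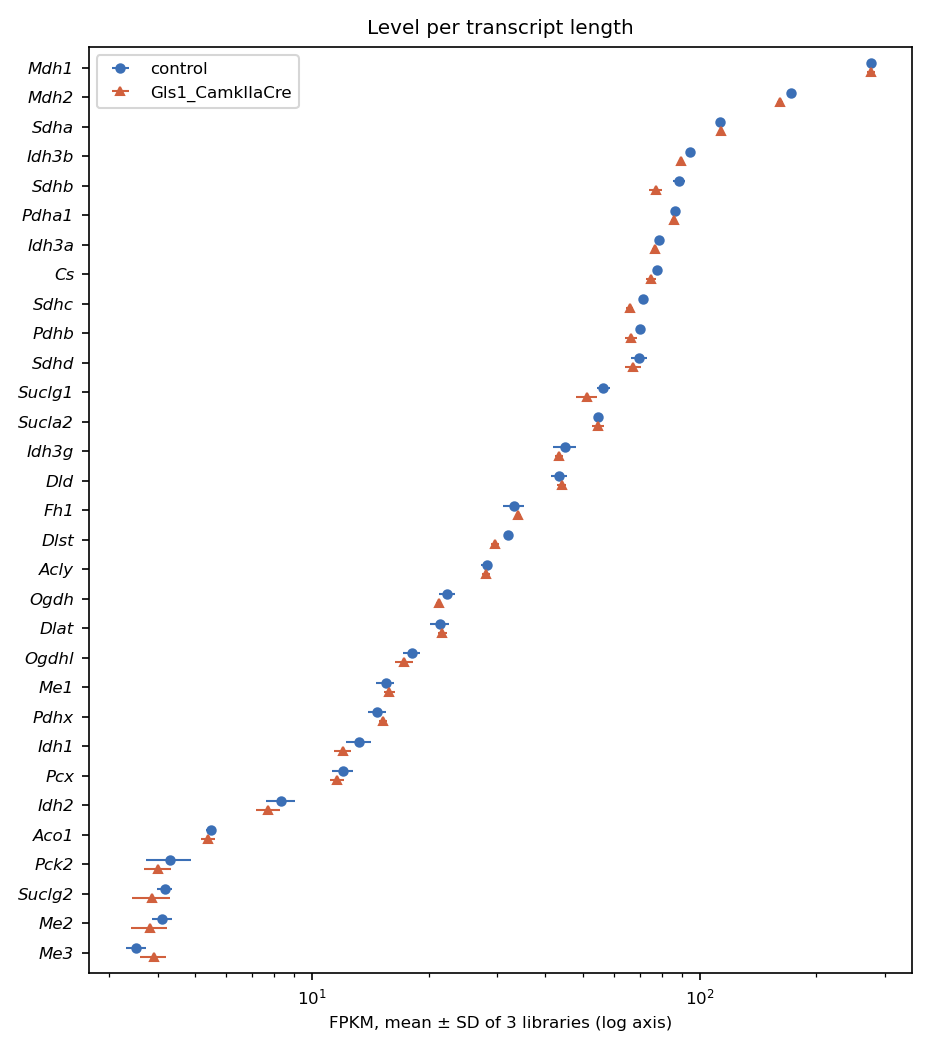
FPKM of the 31 genes on a log axis, as mean and SD of 3 control libraries (circles) and 3 Gls1_CamkIIaCre libraries (triangles), ordered by the control mean. Levels run from 3.52 FPKM for Me3 to 277 FPKM for Mdh1, and the order of the genes is nearly the same in both groups.

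Related enzymes were present in unequal amounts. Of the FPKM of both ADP- and GDP-linked subunits of succinyl-CoA ligase, the ADP-linked Sucla2 made up 92.9% ± 0.386 in control and 93.4% ± 0.911 in Gls1_CamkIIaCre libraries (SD, n = 3 per group). Ogdh and its paralog Ogdhl were nearly even on the FPKM scale, with Ogdh at 55.3% ± 0.266 and 55.1% ± 0.933 of their sum. That share depends on a long gene model of Ogdh, with an implied length of 10983 bases against 5456 annotated exon bases. For Ogdhl these were 4921 and 4148 bases. Not scaled to length, mean control levels were 242 CPM for Ogdh and 87.3 CPM for Ogdhl. Idh1, the cytosolic NADP-dependent isocitrate dehydrogenase, made up 61.4% ± 3.66 of the sum of Idh1 and Idh2 in control and 60.9% ± 2.85 in Gls1_CamkIIaCre. In each of these pairs the group means differed by less than the larger SD. Mdh1 made up 61.7% ± 0.623 of malate dehydrogenase FPKM in control and 63.1% ± 0.936 in Gls1_CamkIIaCre. The Mdh1 shares were 61.9%, 62.1% and 60.9% against 63.2%, 62.1% and 64.0%, and the groups overlapped by a narrow margin. FPKM as deposited summed to 249602 to 252272 in control and 238924 to 243144 in Gls1_CamkIIaCre libraries, so levels on this scale sit slightly lower in the latter as a whole.

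Between the groups, 0 of the 31 genes were called by edgeR at an adjusted p under 0.05, against 8.24% of all genes tested (4.29% lower and 3.95% higher). DESeq2 and limma voom also called 0. At an unadjusted p under 0.05, 3 genes were lower (11.3% of all genes tested were) and 0 were higher (11.1%). Fitted log2 fold changes, Gls1_CamkIIaCre over control, ran from -0.16 for Suclg2 to 0.11 for Me3. Their median was -0.023, beside -0.0024 over all genes tested. Without control 2, 0 of the 31 were called and the median was -0.013. In bulk tissue, a lower level can mean fewer cells of a type or less RNA per cell, and these cannot be told apart.

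These genes were measured with good precision. Counts per library lay between 312 for Pck2 and 13990 for Mdh1. The coefficient of variation among control libraries had a median of 3.42% over the set, against 5.66% over all genes tested and 4.03% over the 8308 genes within the set's range of control levels. The 95% interval of the fold change stayed inside 1.2-fold in both directions for 29 of the 31 genes, or 93.5%, against 49.3% of all genes tested, a share not matched for level. The median standard error of the log2 fold change was 0.046 over the set. It was 0.056 over the genes within its range of control levels and 0.075 over all genes tested. The exceptions to the 1.2-fold limit were Suclg2, whose interval ran from -20.5% to 0.849%, and Idh1, whose interval ran from -17.4% to -1.49%. For Sdha the interval ran from -4.08% to 6.53%, and for Mdh1 from -5.68% to 5.22%.

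**Figure D2:**
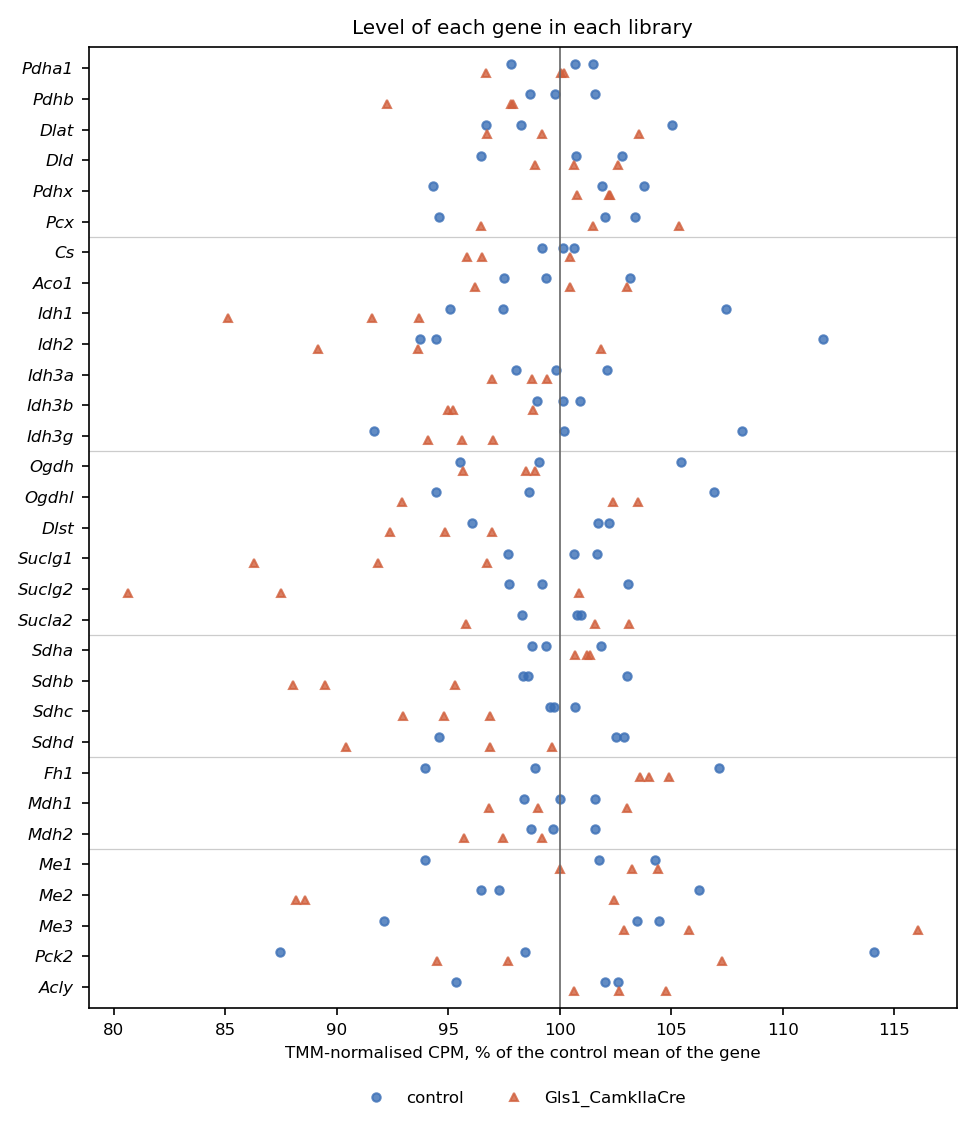
TMM-normalised CPM of each gene in each library, as a percentage of the gene's control mean, with control libraries as circles and Gls1_CamkIIaCre libraries as triangles. Grey lines part the genes by step of the pathway, and in 6 genes all triangles lie left of all circles.

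**Figure D3:**
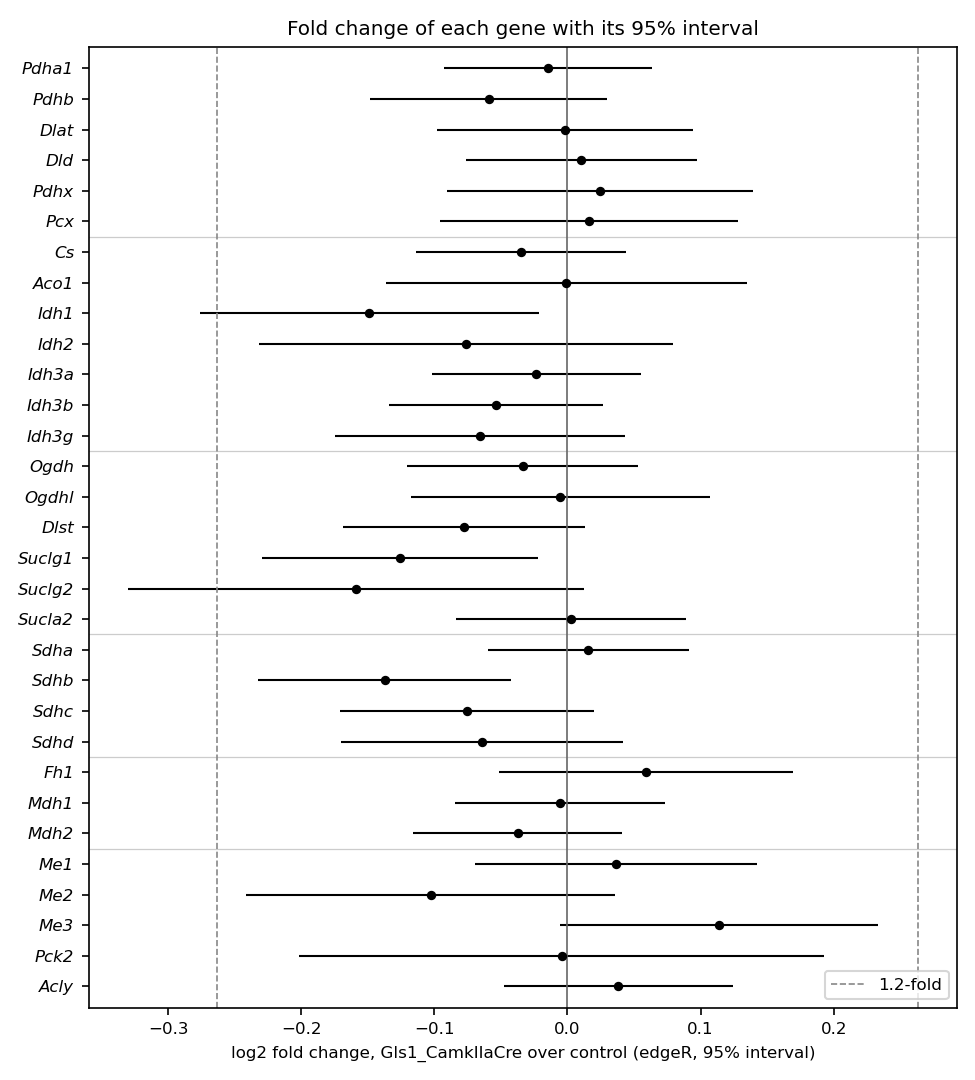
Log2 fold change of each gene, Gls1_CamkIIaCre over control, with its 95% interval from edgeR, and dashed lines at 1.2-fold. The intervals of Idh1 and Suclg2 pass the lower dashed line, and those of the other 29 genes stay between the lines.

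In 6 of the 31 genes every Gls1_CamkIIaCre library lay below every control library, or 19.4%, against 13.6% of all genes tested. These were Pdhb, Idh1, Idh3b, Suclg1, Sdhb and Sdhc. In 0 genes did all Gls1_CamkIIaCre libraries lie above, against 13.1%. The summed level of the set was 4562, 4609 and 4630.5 CPM in control and 4525, 4514 and 4563 CPM in Gls1_CamkIIaCre libraries, so that the groups overlapped by a narrow margin. Highest values were unevenly spread, with control 3 highest in 13 genes and Gls1_CamkIIaCre 1 in 0, and Gls1_CamkIIaCre 2 was lowest in 10.

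The 6 genes of pyruvate entry gave a median log2 fold change of 0.0043. Pdha1, the catalytic alpha subunit of pyruvate dehydrogenase, had 329 ± 6.36 CPM in control and 326 ± 6.54 CPM in Gls1_CamkIIaCre (mean ± SD over 3 libraries each), with an adjusted p of 0.874 by edgeR. Pdhb, the beta subunit, had 125, 124 and 127 CPM in control and 123, 123 and 116 CPM in Gls1_CamkIIaCre (log2 fold change -0.059 ± 0.043, SE, and adjusted p = 0.455 by edgeR). The groups did not overlap, yet the closest libraries were under 1 CPM apart. Dlat, the acetyltransferase core, Dld, the shared dihydrolipoyl dehydrogenase, and Pdhx, the protein that anchors it, lay at -0.0020, 0.011 and 0.025. Pcx, pyruvate carboxylase, had 62.2 ± 2.95 against 62.9 ± 2.77 CPM. Pdhb has a near-identical processed pseudogene, and 603 exon bases of Pdha1 overlap Map3k15 on the other strand, so both values depend on how such reads were counted. Exon overlaps on the other strand were 52 bases for Mdh1 (with Wdpcp) and 5 for Idh3b (with Nop56).

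At the citrate and isocitrate steps all 7 fitted values were below 0, with a median of -0.054. Summed over these genes, control libraries had 926, 943 and 936 CPM and Gls1_CamkIIaCre libraries 908, 907 and 904 CPM. The sums of the groups did not overlap here, unlike those of the other steps, and 0 of the 7 genes were called by edgeR, with 1 (Idh1) at an unadjusted p under 0.05. Citrate synthase, Cs, had 272 ± 1.97 CPM in control and 265 ± 6.84 in Gls1_CamkIIaCre, where Gls1_CamkIIaCre 2, at 273 CPM, lay among the controls. Idh3a, Idh3b and Idh3g encode the NAD-dependent isocitrate dehydrogenase of the cycle. Idh3b had 199, 201 and 203 CPM in control and 199, 191 and 191 CPM in Gls1_CamkIIaCre (log2 fold change -0.054 ± 0.039, SE, and adjusted p = 0.453 by edgeR). The Gls1_CamkIIaCre 1 library lay at the edge of the controls and the other libraries of that group below it. Its partners Idh3a and Idh3g had -0.023 and -0.066, with adjusted p of 0.776 and 0.508.

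Idh1, which makes NADPH in the cytosol, was among the 3 genes with an unadjusted p under 0.05. The gene lies at chr1:65158616-65186479 on the minus strand. Its levels were 47.0, 45.8 and 51.8 CPM in control and 44.1, 41.0 and 45.1 CPM in Gls1_CamkIIaCre. All Gls1_CamkIIaCre libraries lay below all controls, with the nearest under 1 CPM apart and control 3 the highest. The log2 fold change was -0.15 ± 0.061 (SE), and the edgeR adjusted p of 0.144 missed the threshold. Idh2, its mitochondrial counterpart, gave 35.0 ± 3.58 against 33.2 ± 2.25 CPM, and Aco1, the cytosolic aconitase that also binds iron-responsive RNA, 29.5 ± 0.850 against 29.4 ± 1.02 CPM.

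For oxoglutarate dehydrogenase, where glutamate carbon joins the cycle, neither E1 gene stood apart: Ogdh had a log2 fold change of -0.034 (edgeR adjusted p = 0.698) and Ogdhl of -0.0053 (0.972). Dlst, the succinyltransferase core of the complex, had 118, 125 and 125 CPM in control and 116, 119 and 113 CPM in Gls1_CamkIIaCre (-0.078 ± 0.044 SE, adjusted p = 0.310). Gls1_CamkIIaCre 2 exceeded control 1, so the groups overlapped.

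Succinyl-CoA ligase makes a nucleotide triphosphate from succinyl-CoA. Its shared alpha subunit Suclg1 stood at 82.9, 86.2 and 85.4 CPM in control and 73.2, 77.9 and 82.1 CPM in Gls1_CamkIIaCre (log2 fold change -0.13 ± 0.050, SE, and adjusted p = 0.129 by edgeR). All 3 Gls1_CamkIIaCre libraries were lower, though the highest of them came within 1 CPM of a control. Suclg2, the GDP-linked beta subunit, had 24.6, 23.3 and 23.7 CPM in control and 20.9, 24.1 and 19.2 CPM in Gls1_CamkIIaCre (-0.16 ± 0.082 SE, adjusted p = 0.267). Gls1_CamkIIaCre 2 lay among the controls and the other libraries of that group below them. Sucla2, the ADP-linked beta subunit, had 166 ± 2.46 against 166 ± 6.40 CPM. Suclg2 also has a near-identical processed pseudogene.

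Succinate dehydrogenase is both a cycle enzyme and complex II of the respiratory chain. Sdha and Sdhb form its catalytic head, and Sdhc and Sdhd hold it in the inner membrane. Sdhb, the iron-sulfur subunit, had the smallest p of the set. The gene lies at chr4:140961271-140979198 on the plus strand. Its levels were 114, 109 and 109 CPM in control and 105, 98.9 and 97.3 CPM in Gls1_CamkIIaCre. Every Gls1_CamkIIaCre library was lower than every control. The log2 fold change was -0.14 ± 0.046 (SE), and the edgeR adjusted p of 0.0690 missed the threshold. It passed, among other settings, with upper-quartile factors (adjusted p = 0.0414) and with FPKM as input (0.0380 and 0.0343), and over all alternatives the adjusted p ran from 0.0335 to 0.660, with 0.127 without control 2. The largest of these came after a correction for gene length, where the log2 fold change was -0.043.

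The other subunits differed less. Sdhc had 80.2, 80.4 and 81.2 CPM in control and 76.4, 74.9 and 78.1 CPM in Gls1_CamkIIaCre (log2 fold change -0.075 ± 0.046, SE, and adjusted p = 0.356 by edgeR). The control values lay close together and all above the Gls1_CamkIIaCre values. Sdhd had 84.6 ± 3.96 against 80.9 ± 4.01 CPM (adjusted p = 0.506), with overlapping libraries. Sdha, the most abundant subunit per length, had 427, 416 and 414 CPM in control and 425, 424 and 422 CPM in Gls1_CamkIIaCre (log2 fold change 0.016 ± 0.036 SE, adjusted p = 0.854).

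Promoters of subunits of this complex are shown because the subunits had unequal fold changes, with Sdha and Sdhb at the ends, though the difference between subunits was not tested. Each is the 110 bases before the RefSeq transcription start in GRCm38.p6, written 5′ to 3′ on the gene's strand. Capitals mark matches to an NRF1 motif (GCGCA, any base, then GCGC, on either strand) in Sdha and Sdhd, and to a CCAAT box (CCAAT, either strand) in Sdhb. NRF1 is a transcription factor known for nuclear genes of mitochondrial proteins. The windows are chr13:74350241-74350350 (minus strand) for Sdha, chr9:50603850-50603959 (minus) for Sdhd and chr4:140961161-140961270 (plus) for Sdhb.
Sdha: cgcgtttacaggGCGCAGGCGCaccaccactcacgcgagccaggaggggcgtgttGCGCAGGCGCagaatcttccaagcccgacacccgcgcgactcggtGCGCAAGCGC
Sdhd: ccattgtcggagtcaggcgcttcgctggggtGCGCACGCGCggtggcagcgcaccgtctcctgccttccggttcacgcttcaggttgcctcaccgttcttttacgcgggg
Sdhb: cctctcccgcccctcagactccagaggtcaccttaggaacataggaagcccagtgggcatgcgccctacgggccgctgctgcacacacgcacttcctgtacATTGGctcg

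Sdha has 3 NRF1 matches in this window and Sdhd has 1. Over the RefSeq promoter windows, which also reach just past the start, 28 of the 31 genes had an entry, and 4 of these, or 14.3%, held an NRF1 match: Sdha, Sdhd, Sucla2 and Dld. The share was 10.5% of 11452 tested genes and 5.19% of all 27025 genes with a promoter entry. A CCAAT box was found in 17 of the 28, or 60.7%, against 42.6% of tested genes and 41.1% of all, and a TATA box (TATAAA, either strand) in 0, against 8.99% and 15.7%. CG pairs numbered 20.5 per window (median) in the set, 19.0 in tested genes and 7 in all genes. Of motifs of other regulators, ERR (AAGGTCA, either strand) was in 2 of the 28, or 7.14%, against 4.03% of tested genes and 5.38% of all. ETS (CCGGAAGT) and YY1 (AAGATGGC), on either strand, were in 1 each, or 3.57%, against 8.22% and 4.79% of tested genes and 4.31% and 3.19% of all. Of the genes with an NRF1 match, Sdha, Sucla2 and Dld had log2 fold changes of 0.016, 0.0026 and 0.011, and Sdhd of -0.064, all uncalled.

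Fumarase and the malate dehydrogenases close the cycle. Fh1, fumarase, had 65.9 ± 4.38 CPM in control and 68.6 ± 0.440 CPM in Gls1_CamkIIaCre (log2 fold change 0.059, edgeR adjusted p = 0.565). Mdh1 had 714 ± 11.3 against 711 ± 22.5 CPM (adjusted p = 0.955), and Mdh2 248 ± 3.63 against 242 ± 4.35 CPM (0.621).

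The genes that move carbon in or out of the cycle had a median log2 fold change of 0.036. Me3, a mitochondrial malic enzyme that turns malate into pyruvate, had 76.7, 67.6 and 76.0 CPM in control and 75.6, 85.2 and 77.7 CPM in Gls1_CamkIIaCre (0.11 ± 0.057 SE, edgeR adjusted p = 0.249). Gls1_CamkIIaCre 2 was high and control 2 low, and the rest lay together. Part of its sequence matches an antisense gene. Me2, the other mitochondrial malic enzyme, had 40.9, 41.2 and 45.0 CPM in control and 43.4, 37.4 and 37.5 CPM in Gls1_CamkIIaCre (-0.10 ± 0.067 SE, adjusted p = 0.392), and the groups overlapped. Me1, the cytosolic form, had 71.1 ± 3.83 against 72.9 ± 1.62 CPM, with near-identical pseudogene sequence. Pck2, the mitochondrial phosphoenolpyruvate carboxykinase, had 18.7 ± 2.51 against 18.7 ± 1.25 CPM. Acly, which splits cytosolic citrate into acetyl-CoA, had 187 ± 7.57 against 192 ± 3.87 CPM.

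Fold changes went with gene length in this comparison. Length is here the value implied by the ratio of counts to FPKM. Across all 14440 genes tested, Spearman's rho of log2 fold change with length was 0.265, and across the 31 genes it was 0.306, as descriptions over genes that share the same libraries. The set is short, with a median of 3630 bases against 5009 over all genes tested. Of 9 members under 2500 bases 8 had a fitted value below 0, as did 14 of the 22 longer ones. In all, 22 of the 31 values lay below 0, or 71.0%, against 50.8% of all genes tested. A correction for length shifted all genes, whose median went from -0.0024 to 0.023 and whose share below 0 went to 42.6%. After it 9 of the 31 values lay below 0, or 29.0%, with a median of 0.025, and 0 were called. Against the median of all genes in the same fit, 20 of the 31 lay below before the correction and 13 after it.

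**Figure D4:**
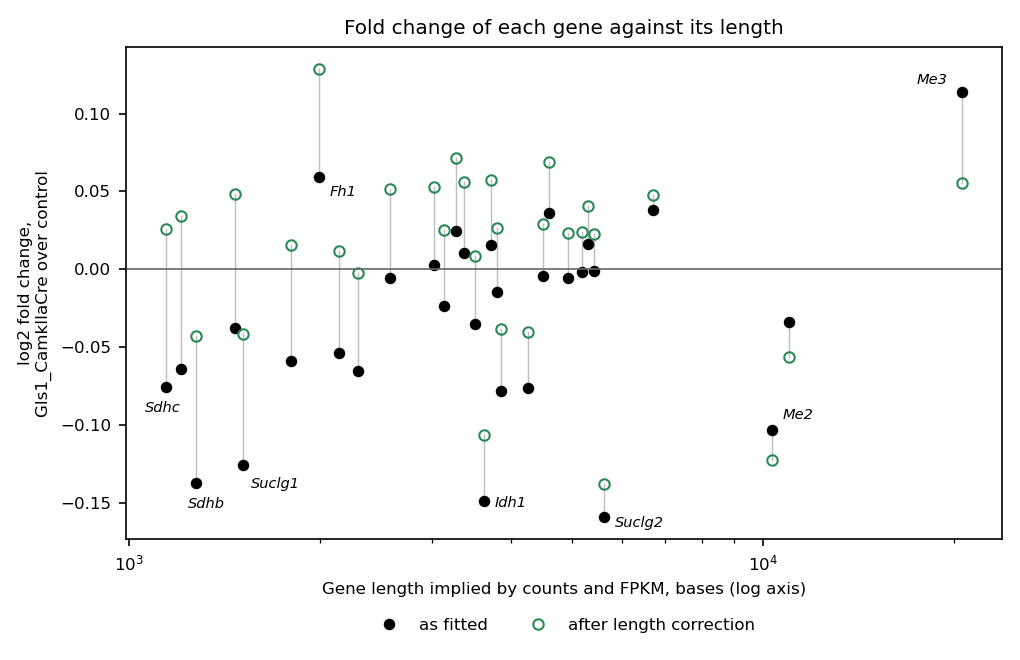
Log2 fold change, Gls1_CamkIIaCre over control, of each of the 31 genes against the gene length implied by counts and FPKM (log axis), as fitted (filled) and after a correction for length (open), joined by a grey line for each gene. Short genes such as Sdhb, Sdhc and Suclg1 move upward under the correction, and Suclg2, Me2 and Idh1 have the lowest values after it.

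Genes around the cycle were taken from 5 lists with 39 genes, all tested. Of these 1 was higher and 2 lower by edgeR, or 7.69%, close to the background of 8.24%, with a median log2 fold change of -0.026. The count was 0 without control 2 or without Gls1_CamkIIaCre 2, and 1 or 2 without another library. Among 9 genes for the pyruvate carrier and the kinases and phosphatases of pyruvate dehydrogenase, 1 was called. Pdpr, the regulatory subunit of the phosphatase that activates the complex, rose from 67.6, 70.2 and 66.7 CPM to 82.2, 78.9 and 70.5 CPM (0.18 ± 0.055 SE, adjusted p = 0.0480). Gls1_CamkIIaCre 3 lay close to the controls. The call was lost with DESeq2 (adjusted p = 0.0880) and limma voom (0.0581), with upper-quartile factors (0.0738), on FPKM, after the length correction and without any library but Gls1_CamkIIaCre 3, and the adjusted p ran from 0.00934 to 0.218. Pdk3, a kinase that inactivates the complex, was picked after its values were seen and had 28.0, 31.6 and 30.3 CPM in control against 36.2, 33.1 and 34.5 CPM in Gls1_CamkIIaCre, with no overlap. Its log2 fold change was 0.21 ± 0.067 (SE), with an edgeR adjusted p of 0.0587, and it was called in 6 of 17 alternatives, as was Pdpr.

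Among 8 genes for lipoylation and complex assembly 1 was called. Sdhaf4, an assembly factor of succinate dehydrogenase, fell from 12.9, 14.4 and 12.9 CPM to 10.8, 11.3 and 9.12 CPM (log2 fold change -0.37 ± 0.11, SE, and adjusted p = 0.0377 by edgeR). All Gls1_CamkIIaCre libraries were lower. The call was lost with DESeq2 (0.0845), after the length correction (0.236, log2 fold change -0.23) and without any library but control 3, and the adjusted p ran from 0.0148 to 0.236.

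Genes by which glutamate and GABA reach the cycle numbered 8, and 1 was called. Abat, the GABA transaminase that starts the route from GABA to succinate, fell from 330, 362 and 332 CPM to 309, 295 and 298 CPM (log2 fold change -0.18 ± 0.042, SE, and adjusted p = 0.0104 by edgeR). Each Gls1_CamkIIaCre library was below each control, and control 2 was the highest. Without control 2 the adjusted p was 0.0924, without Gls1_CamkIIaCre 2 it was 0.0821, and in the other 15 alternatives Abat was called. Interneuron markers summed to 1146 to 1250 CPM in control and 969 to 1160 CPM in Gls1_CamkIIaCre, with overlapping groups. Of these 6 markers edgeR called 3 lower (Gad2, Slc32a1 and Sst), while Gad1, Pvalb and Vip, at log2 fold changes of -0.088, -0.16 and 0.13, were not called. Striatal neuron markers were also lower, summing to 775 to 1298 CPM in control and 304 to 349 CPM in Gls1_CamkIIaCre. Their sum was highest in control 2, as was the level of Abat. The part of interneurons or of striatal neurons in the Abat result was not tested, nor was that of striatal neurons in the interneuron marker calls. Glud1, glutamate dehydrogenase, was picked after its values were seen and had 280, 284 and 278 CPM against 265, 261 and 254 CPM (-0.11 ± 0.038 SE, adjusted p = 0.0768), with no overlap.

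Of 9 genes for acetyl-CoA, ketone and propionate entry 0 were called by edgeR, DESeq2 or limma voom, and 0 had an unadjusted p under 0.05. Bdh1, of ketone body use, had a log2 fold change of -0.074 and Mcee, of propionate use, of -0.11. Of 5 other dehydrogenases and hydratases 0 were called by these tools, again with 0 at an unadjusted p under 0.05, and Dhtkd1 and D2hgdh had 0.21 and -0.17 (adjusted p = 0.327 and 0.360).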

How the data were processed

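RNA sequencing libraries from prefrontal cortex of 3 control and 3 Gls1_CamkIIaCre mice were compared. One deposited table holds the authors' raw read counts for 21878 genes, as whole numbers, and another deposited table holds FPKM (fragments scaled to gene length and library size). RNA was extracted with TRIzol, per the labels' protocols. The submitters' processing notes name GRCm38 (mm10) as the build. How reads were aligned, counted or scaled to FPKM, and whether strand was used, is not given in the sources used here.

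Counts as deposited were fitted with edgeR 4.0.16 in R 4.3.3 (filterByExpr filter, TMM factors, robust glmQLFit and glmQLFTest, no covariate), and p-values were adjusted by Benjamini-Hochberg over all 14440 genes tested. A gene was called at an adjusted p under 0.05. Levels per library are TMM-normalised CPM. FPKM served for levels across genes. Gene length was taken as the ratio of CPM to FPKM, as a mean over libraries. Alternatives were DESeq2 1.42.0, limma 3.58.1 (voom, or log2 of FPKM plus 1 or 0.1), other size factors and filters, a replicate block, a per-library spline on length with 4 degrees of freedom, and leaving out each library. Total counts ran from 17987807 to 19330961 per library, and intervals are at 95%. The procedure was checked on simulated counts.

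The members and all gene lists were chosen with earlier results of these data known. Named genes followed a rule: every member, library values for the 10 members of smallest p, and from each list of neighbouring pathway genes the called genes or else the 2 of smallest p. Outside that rule, library values of Sdha, Glud1, Pdk3 and Pdk1 and fold changes of Pdk2, Pdk4 and Mpc2 were added after they had been seen. The targeted gene was left out of the list of glutamate entry genes, and it and some other values are not reported here. Alternatives for the neighbouring genes were chosen after seeing the data. Positions and promoters came from RefSeq tables of GRCm38.p6, matched by NCBI gene identifier, with exon overlap and strand from GENCODE M21.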

Additional observations from a re-analysis of the deposited data

How the results depend on the processing

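Over the 17 alternatives the count of called cycle genes stayed at 0 in 13 and was 1 in 4 (upper-quartile factors, the replicate block, and log2 of FPKM plus 1 or plus 0.1), in each case Sdhb. It was 0 without any single library. The median log2 fold change of the set, -0.023, was -0.040 with upper-quartile factors, -0.053 on both FPKM scales, 0.025 after the length correction and 0.025 with length correction and replicate block together, and between -0.037 (control 1 left out) and -0.013 (control 2 left out) without a library. These settings moved the median of all genes too, to -0.019 with upper-quartile factors and 0.023 with the length correction. The cause was not tested. Genes called over the whole table numbered 1190, but 674 and 729 on FPKM plus 1 and plus 0.1, and between 415 (without Gls1_CamkIIaCre 2) and 1098 without a library, and the largest drops after that were to 635 (control 2 left out), 763 (control 1) and 778 (Gls1_CamkIIaCre 1). Of these calls 48.0% were higher, a share that became 36.4% with upper-quartile factors, 17.2% and 16.7% on FPKM, and 62.4% with block and length correction. Calls among neighbouring pathway genes numbered 3, and between 0 and 2 without a library.

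Same-numbered libraries of the 2 groups had correlations of deviations of 0.139, -0.0263 and 0.140, and control 2 correlated best with another number, so the numbers were not taken as pairs. The replicate block called 1758 genes and 1 of the 31. With 3 mice per group, the standard error of the log2 fold change had a median of 0.046 over the set.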
